A study of Mus musculus with 22 samples.

Results

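The genes described here are the mouse voltage-gated ion channel families, taken as every gene symbol that begins with Kcn, Cacn, Scn and a digit, or Hcn and a digit. The rule picked 141 of the 29848 gene symbols in the tables: 95 Kcn (potassium channel), 15 Scn (sodium channel), 27 Cacn (calcium channel) and 4 Hcn (hyperpolarization-activated channel) symbols. The prefix also takes in relatives that are not gated by voltage, such as inward rectifier and leak potassium channels, as well as Kcnrg, a regulator, and Kcnq1ot1, a noncoding RNA. Scn2a and CacnB2 are extra symbols at the Scn2a1 and Cacnb2 loci, so these members are not independent.

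The RNA came from micro-dissected CA1 of the mouse hippocampus, in Camk2a-tTA/tetO-EGFP-L10a double transgenics on a C57BL/6 background; the controls carry both transgenes too. The Camk2a promoter acts mainly in forebrain excitatory neurons, and the transactivator it drives switches on a GFP-tagged ribosomal protein that an antibody can pull down. Home cage or fear conditioned mice each gave 2 dendrite and 2 soma (cell body layer) immunoprecipitates, numbered 1 and 2. Supernatants, the RNA left after the pull-down, came from replicate 2 only: a dendrite one for each behaviour and a soma one after fear conditioning. Each of these 11 libraries had a paired-end run, used here throughout, and a single-end run used as a technical repeat. Whether the replicates are different animals is not stated in the labels, and the p-values therefore cover only the spread between these samples, which may be technical.

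A neuron's dendrites, cell body and axon initial segment carry different channels. Sodium channels start and propagate the action potential; A-type and calcium-activated potassium channels limit how far it spreads into dendrites and how long it lasts; HCN channels, which open on hyperpolarization, damp synaptic input in the distal dendrites of CA1 neurons. Pore subunits form the channel, while beta, alpha2delta, KChIP and Kvbeta subunits set its trafficking and gating, and most channel proteins are thought to be made in the cell body, although some of their mRNAs have been described in dendrites.

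Channel mRNAs were above 0 more often than all genes in 10 of the 11 libraries, but single members often rested on few fragments. Values are FPKM, fragment counts normalised to transcript length and library depth, with the transcript split by the depositors into a coding part (5′ UTR, coding sequence and first stretch of the 3′ UTR) and the rest of the 3′ UTR, which 123 members have. Depth, estimated from the spacing of low values, was 5630000 to 35400000 fragments in the paired-end runs and 524000 to 10700000 in the single-end runs. At the paired-end depth, members with 1 gene model and any signal rested on a median of 2.13 to 80.2 estimated fragments per library. Members were 0.472% of all symbols and made up 0.021 to 0.653% of the summed FPKM. In the coding part 115 members were above 0 in at least 1 library and 37 were listed at 0 in all 8 immunoprecipitates; 73.8% of members and 51% of all genes were above 0 in at least 1 of these. Of the members 18 were listed at 0 in every library of both tables and both parts. A value of 0 is given as listed at 0, since absence at this depth cannot be told from a missed transcript.

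In the dendrite immunoprecipitates 14, 33, 84 and 42 members were listed above 0, in the order home cage 1, home cage 2, fear conditioned 1 and fear conditioned 2, which is kept below. The soma immunoprecipitates had 48, 18, 73 and 64. The supernatants had 95 and 80 (dendrite) and 83 (soma). Counts in the 2 locations overlapped. Home cage dendrite 1 was the library where members were above 0 less often than all genes. Only 3 members were above 0 in all 8 immunoprecipitates, and the sodium channel pores Scn2a1 and Scn8a were among them.

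**Figure D1:**
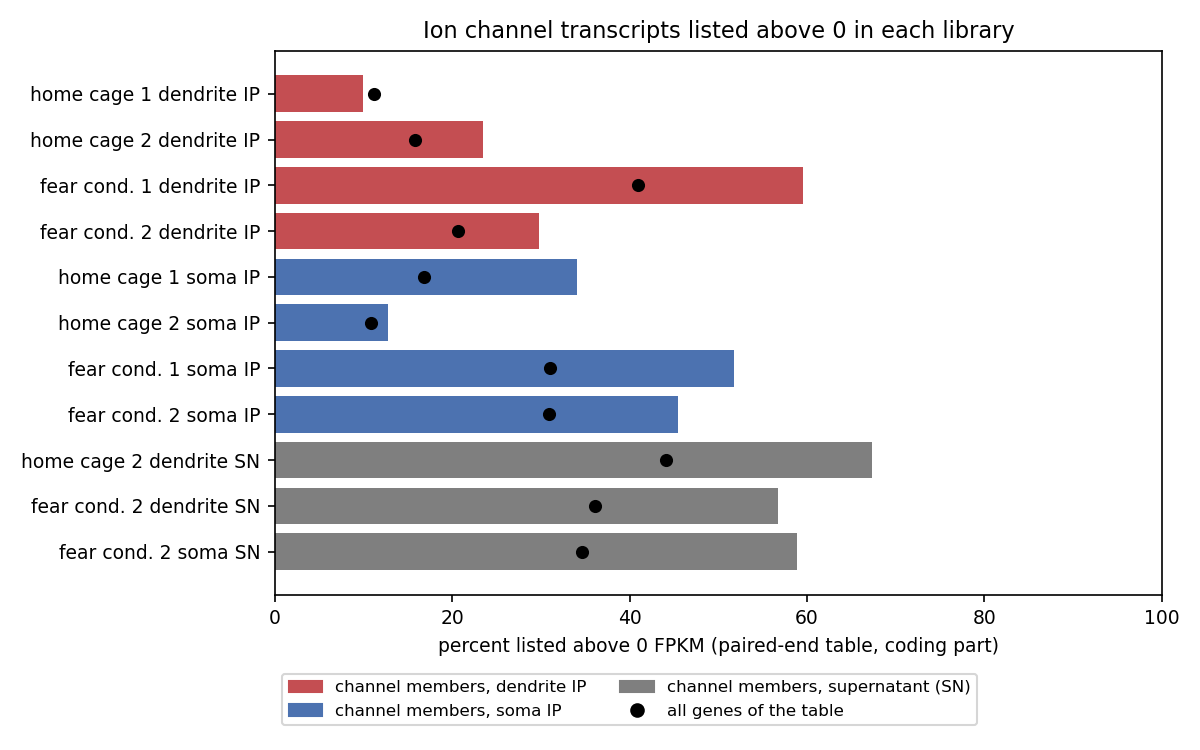
Percent of the 141 channel members (bars) and of all 29848 genes (black points) listed above 0 FPKM in each paired-end library, coding part. Members ran from 9.93% in home cage dendrite 1 to 67.4% in the home cage dendrite supernatant, and were above the percent for all genes in every library but home cage dendrite 1.

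Among the immunoprecipitates 2 libraries stood apart. Home cage soma 2 listed the fewest genes of all 11 libraries (3220) and was scaled up most, by a size factor of 0.254. Fear conditioned dendrite 1 listed 12205 genes, inside the range of the supernatants (10344 to 13164). It was the only immunoprecipitate with all 10 astrocyte, 8 oligodendrocyte, 8 microglia and 4 vascular markers above 0. Of 9 interneuron markers it had 8. In its single-end run 10 astrocyte, 4 oligodendrocyte, 4 microglia and 4 vascular markers were above 0. Summed FPKM of the 8 CA1 pyramidal markers was 78.3, 710, 274 and 732 in dendrite and 18.3, 5.96, 61.0 and 270 in soma immunoprecipitates, with 3 to 8 of the 8 above 0. Summed FPKM of the 10 astrocyte markers was 134, 299, 438 and 161 against 11.7, 1.40, 81.5 and 5.06, so every dendrite immunoprecipitate lay above every soma one. In the single-end run these sums were 114, 276, 126 and 141 against 117, 1.51, 26.5 and 8.99, and home cage soma 1 overlapped the dendrite range. The results that follow are given with all libraries unless said otherwise.

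The first comparison asked whether ribosome-bound channel mRNAs differ between dendrites and cell bodies. Of the members, 22 reached a mean of 1 scaled FPKM in the coding part and were tested with limma on log2(scaled FPKM + 1), a scale that understates the change of low genes. None passed an adjusted p of 0.05, and neither did any of the 3076 genes tested (0.0% called). At an unadjusted p under 0.05, 1 member was lower in dendrites and 0 were higher (backgrounds of 3.28% and 1.76%). In simulated data of this size, log2 changes of 1 and 2 were recovered in 0.0% of genes and changes of 4 in 72.5%. Moderate differences were therefore not detectable. Recovery among the members themselves, many of them listed at or near 0 in several libraries, was not tested. Differences were below 0 for 18 of the 22 members and above 0 for 4, against 59.2% and 40.8% of all genes tested, with a median of -1.14 beside -0.37 over all genes. The filter keeps members through the group where they are high, so this is a description of those that passed. Without scaling the 2 medians were -0.85 and 0.12, and with no expression minimum 104 members had a median of -0.066 beside -0.0082 over all genes. In bulk RNA, fewer cells of a type and less RNA per cell cannot be told apart.

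Sodium channel pores had their highest coding values in soma libraries. Scn8a, the Nav1.6 pore that sets the threshold at the axon initial segment, was at 0.0489, 0.0293, 0.898 and 0.00463 scaled FPKM in dendrite and 0.685, 56.7, 4.55 and 0.876 in soma immunoprecipitates. The groups overlapped through fear conditioned dendrite 1, and the soma mean of 15.7 ± 27.4 (SD, n = 4) rested on home cage soma 2. The log2 difference was -2.24 (SE 1.08; limma adjusted p = 0.654). Without home cage soma 2 and fear conditioned dendrite 1 it was -1.25. In the single-end run home cage soma 2 was listed at 0 for Scn8a.

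Scn2a1, which encodes Nav1.2, was at 0.0482, 4.08, 0.418 and 2.35 in dendrite and 0.447, 0.122, 25.3 and 1.30 in soma immunoprecipitates, and fear conditioned soma 1 carried most of the soma signal. Its difference of -0.49 (SE 1.00; limma adjusted p = 0.814) turned to 0.38 without fear conditioned soma 1 and to 0.16 without home cage dendrite 1. Scn2b, a beta subunit that modulates the pores, was high in 1 library of each location, at 26.7 in fear conditioned dendrite 1 and 32.7 in fear conditioned soma 1.

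Calcium channel subunits were the members with the least overlap. All 5 tested had differences below 0 (59.2% of all genes tested), with a median of -1.74. The expression minimum keeps members through the group where they are high. Cacnb3 fell short of it, with a mean of 0.910 scaled FPKM, and leaned the other way. It was at 0, 5.30, 0.730 and 0.775 in dendrite and 0.142, 0.149, 0.0239 and 0.162 in soma immunoprecipitates. Cacnb2, a beta subunit that brings the pore to the membrane (mm9, chromosome 2, 14525933 to 14908560), was at 0, 0, 0.0759 and 0.114 in dendrite and 1.03, 1.02, 2.07 and 10.9 in soma immunoprecipitates. Every soma library lay above every dendrite library. Its log2 difference was -1.74 (SE 0.77; limma adjusted p = 0.654), and it was the 1 member with an unadjusted p under 0.05.

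Cacna1a, the P/Q-type pore of presynaptic terminals and dendrites (mm9, chromosome 8, 86939263 to 87164148), was at 0, 0.533, 0.632 and 0.263 in dendrite and 1.14, 3.10, 3.75 and 2.77 in soma immunoprecipitates, again without overlap. Its difference was -1.41 (SE 0.76; limma adjusted p = 0.654). These were the only 2 members lower in every dendrite library, 2 of 22 beside 1.98% of all genes tested, and none was higher in every dendrite library (background 1.56%). As deposited, without scaling, Cacnb2 kept the separation and Cacna1a did not. In the single-end run neither did. Both loci overlap another annotated transcript on the opposite strand, and whether the counting used strand is not stated. The one at Cacna1a was listed at 0 in every library. The one at Cacnb2, AK138658, was at 1.92, 0, 1.45 and 4.79 FPKM in soma immunoprecipitates and at 0 in all 4 dendrite ones, so reads of the 2 transcripts cannot be told apart there.

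Another pair of calcium channel genes were near 0 in dendrite libraries but also in some soma libraries. Cacna1e, the R-type pore that admits calcium into CA1 spines and dendrites, was at 0, 0.900, 0.0814 and 0 against 8.39, 0, 6.57 and 2.73 (log2 difference -1.75, SE 0.89; limma adjusted p = 0.654). Cacnb4, another beta subunit, was at 0, 0, 0.182 and 0.0184 against 0, 0, 3.81 and 30.6 (log2 difference -1.75, SE 0.81; limma adjusted p = 0.654). Both soma libraries with Cacnb4 were from fear conditioned mice.

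Among potassium channels, 12 of 95 members were tested and 9 had differences below 0, beside 59.2% of all genes tested. Kcnd2, the Kv4.2 pore of the dendritic A-type current, was at 0, 0.361, 0.279 and 0.379 in dendrite and 3.61, 0.363, 0.896 and 4.81 in soma immunoprecipitates. The groups overlapped only because home cage soma 2 lay just below fear conditioned dendrite 2. Its difference was -1.21 (SE 0.79, limma adjusted p = 0.654). In the rest of the 3′ UTR Kcnd2 went the other way (log2 difference 0.62, SE 1.00, limma adjusted p = 0.719). There it was at 0.128, 19.3, 0.317 and 0 in dendrite and 0, 0.161, 0.0984 and 3.18 in soma immunoprecipitates. The coding part of its KChIP partner Kcnip4 was listed at 0 in all dendrite libraries but fear conditioned 1 (0.0597). Kcnip4 was at 0.984, 0, 7.57 and 3.15 in soma libraries (log2 difference -1.51, SE 0.75, limma adjusted p = 0.654).

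Kvbeta subunits went in both directions. Kcnab1, a beta subunit of the Kv1 channels, was at 0, 0, 0.0606 and 0 in dendrite and 0.614, 0, 5.75 and 4.33 in soma immunoprecipitates (log2 difference -1.44, SE 0.73; limma adjusted p = 0.654). Kcnab2, its close relative, was at 0, 2.63, 3.18 and 9.68 against 0.887, 0, 1.81 and 1.94 (log2 difference 0.85, SE 0.86; limma adjusted p = 0.655). Kcnab2 was highest in 3 dendrite libraries, but home cage dendrite 1 was listed at 0.

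Other tested potassium members leaned on 1 or 2 libraries. The G protein-gated inward rectifiers Kcnj3 and Kcnj6 peaked at 9.22 in home cage soma 1 and 9.15 in fear conditioned soma 2. Kcnma1, the BK pore, peaked at 9.51 in home cage soma 1, Kcna4 at 9.90 in fear conditioned soma 2, and Kcnrg was above 0 only in fear conditioned soma 1 (8.18). Kcnip1, a KChIP known from interneurons, was at 14.6 in fear conditioned dendrite 1 and at most 0.253 elsewhere. Over the 22 tested members the top library held a median of 68.4% of a member's summed signal, beside 67.4% over all genes tested.

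**Figure D2:**
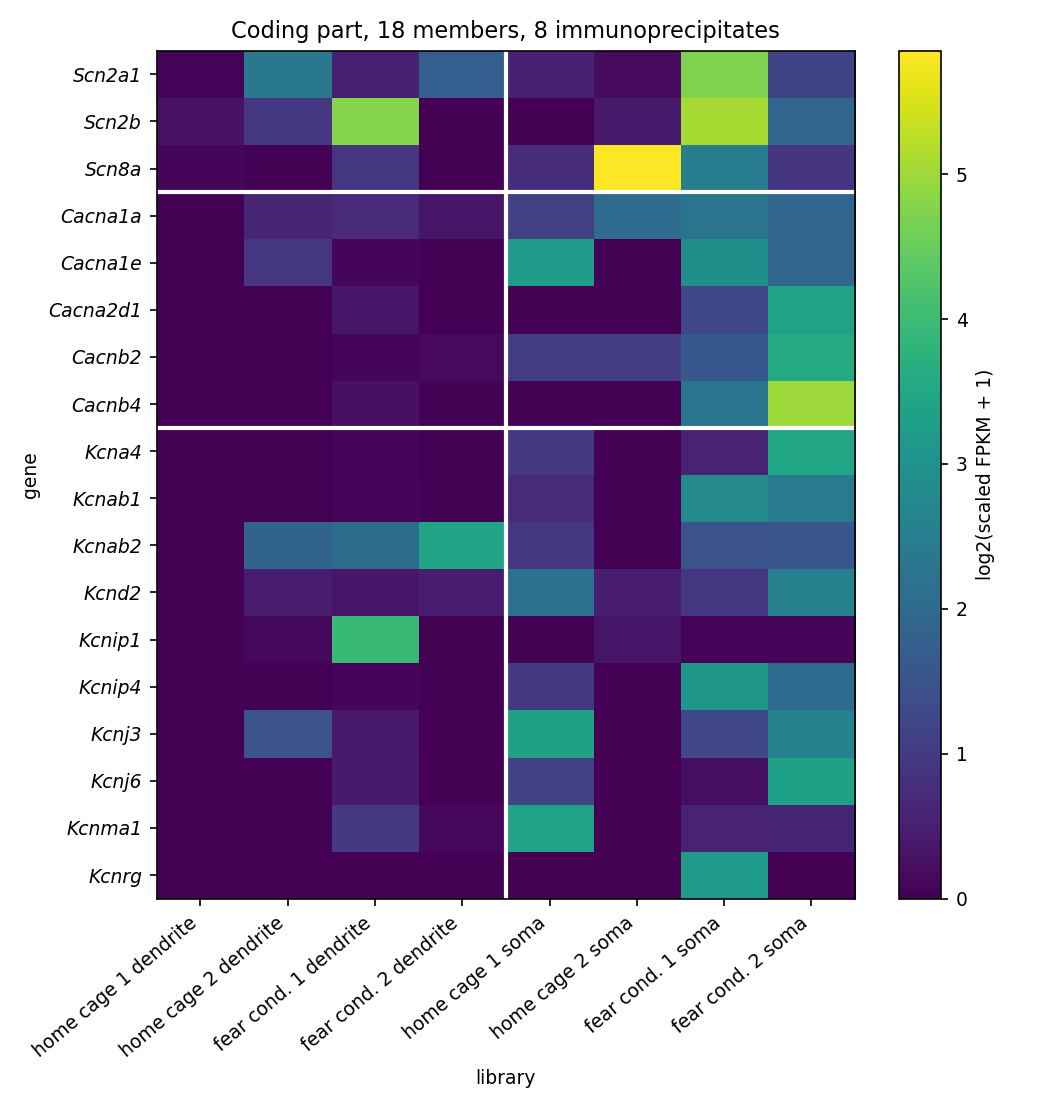
Scaled FPKM of the coding part, as log2(scaled FPKM + 1), for 18 of the 22 tested members (rows, by family) in the 8 immunoprecipitates (columns). Cacnb2 and Cacna1a were lower in each of the 4 dendrite libraries (left) than in any of the 4 soma libraries (right), while most other members shown peaked in 1 or 2 libraries.

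Several channels familiar from CA1 were too low to test in the coding part. Mean scaled FPKM over the immunoprecipitates was 0.677 for the axonal Kv1 pore Kcna1, 0.664 for the HCN subunit Hcn2 and 0.439 for the M-current subunit Kcnq3. It was 0.272 for the SK pore Kcnn2, 0.157 for the L-type pore Cacna1c and 0.145 for the AMPA receptor auxiliary subunit Cacng2. None of the 14 Kcnk (leak) potassium channels and none of the 8 calcium channel gamma subunits reached the minimum.

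The rest of the 3′ UTR gave a second reading of the same libraries. Of 22 members tested there, 12 had also been tested in the coding part. None passed an adjusted p of 0.05 (0.0% of 2235 genes), and at an unadjusted p under 0.05 5 were lower and 1 was higher in dendrites (backgrounds of 4.21% and 1.25%). Of the differences 17 were below 0 and 5 above (62.3% and 37.7% of all genes), and the median was -1.14 beside -0.59 over all genes. Here too the filter keeps members through the group where they are high, so this describes those that passed. With no expression minimum 78 members had a median of -0.086 beside -0.024 over all genes. All 6 Scn symbols tested had differences below 0, with a median of -2.07; Scn2a and Scn2a1 are 1 locus.

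Scn3b, a sodium channel beta subunit (mm9, chromosome 9, 40076801 to 40099203), was at 0, 0.012, 0.591 and 0.0515 in dendrite and 6.56, 0.372, 5.83 and 58.1 in soma immunoprecipitates. Only home cage soma 2 fell among the dendrite values. The log2 difference was -2.82 (SE 1.04; limma adjusted p = 0.608). Scn2b was at 2.93, 0.487, 0.926 and 0.0327 against 7.21, 4.64, 16.5 and 4.62, with no overlap (log2 difference -2.15, SE 1.00; limma adjusted p = 0.608). Scn2b overlapped as deposited, where home cage soma 2 was at 0.772 FPKM and home cage dendrite 1 at 2.75, and in the single-end run. Scn2a1 was at 0, 0, 0.365 and 0.0374 against 0.0759, 2.39, 9.05 and 16.1 (log2 difference -2.20, SE 0.87; limma adjusted p = 0.608), with overlap at home cage soma 1. In the coding part the values of Scn2b and Scn2a1 overlapped widely.

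Kcnj6, the GIRK2 inward rectifier (mm9, chromosome 16, 95044139 to 95078297), was at 0, 0, 0.166 and 0 in dendrite and 3.83, 4.84, 1.46 and 5.10 in soma immunoprecipitates, without overlap. This separation also held as deposited and in the single-end run. The log2 difference was -2.13 (SE 0.83, limma adjusted p = 0.608), and -2.38 without fear conditioned soma 1. Kcnma1 differed between its 2 parts. Its coding part was at 9.51, 0, 0.479 and 0.525 in soma immunoprecipitates, highest in home cage soma 1. In the rest of the 3′ UTR Kcnma1 was listed at 0 in 3 dendrite libraries and at 0.0197 in fear conditioned 1. Soma values there were 0, 0, 31.7 and 11.1, so both above 0 came from fear conditioned mice. Its log2 difference was -2.15 (SE 0.83, limma adjusted p = 0.608). It was -1.76 without fear conditioned soma 1 and -2.47 without fear conditioned soma 2. Each of these fits has a lone fear conditioned soma library and takes its spread from groups at or near 0, so no p-value is given.

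Cacnb3, a calcium channel beta subunit (mm9, chromosome 15, 98465195 to 98474961), went the other way. It was at 18.5, 19.2, 3.41 and 85.0 scaled FPKM in dendrite and 1.40, 4.64, 0.561 and 0.429 in soma immunoprecipitates. After scaling the groups overlapped only through the 2 libraries that stood apart, fear conditioned dendrite 1 and home cage soma 2. As deposited they did not overlap, at 17.4, 23.4, 8.09 and 124 FPKM in dendrite and 0.637, 0.773, 1.10 and 0.858 in soma, and in the single-end run they did. The log2 difference was 3.07 (SE 1.21; limma adjusted p = 0.608). Without those 2 libraries, which made the scaled groups overlap, it was 4.57. That fit has groups with a lone library, so no p-value is given. Its coding part had deposited values of 0, 6.20, 1.57 and 1.35 in dendrite and 0.0785, 0.0378, 0.0278 and 0.249 in soma immunoprecipitates, and the zero in home cage dendrite 1 made the groups overlap.

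Kcnj10, the Kir4.1 inward rectifier known from astrocytes (mm9, chromosome 1, 174271341 to 174304216), was the 1 member higher in every dendrite library after scaling (background 0.94%). As deposited the 1 such member was Cacnb3 (background 1.66%), since Kcnj10 was at 2.83 FPKM in fear conditioned soma 2 and 2.62 in home cage dendrite 1. Scaled Kcnj10 was at 2.79, 5.21, 5.01 and 4.35 in dendrite and 0.178, 0.459, 0.560 and 1.42 in soma immunoprecipitates (log2 difference 1.72, SE 0.89; limma adjusted p = 0.608). The coding-part sums of the astrocyte markers were also higher in every dendrite library in the paired-end run, but not in the single-end run. Within soma the highest scaled Kcnj10 value was in fear conditioned soma 2, where the unscaled sum was 5.06. The highest sum there, 81.5, was in fear conditioned soma 1. In the supernatants the sums were 287 and 356 FPKM in dendrite and 17.8 in soma, and deposited Kcnj10 was at 25.2 and 21.2 against 1.86. Of the 10 markers 6, 9, 10 and 8 were above 0 in dendrite and 5, 5, 9 and 7 in soma immunoprecipitates. Any part of astrocyte RNA in the Kcnj10 result was not tested. Single-end values of Kcnj10 overlapped between locations. Its coding part did not show the pattern. It was listed at 0 in 3 dendrite immunoprecipitates and at 5.59 FPKM in fear conditioned dendrite 1, and the soma libraries were at 2.53, 0, 0.417 and 0. In the deposited rest of the 3′ UTR, dendrite immunoprecipitates (2.62, 6.36, 11.9 and 6.34) lay below dendrite supernatants (25.2 and 21.2). Scaled coding means were 0.663 and 3.42 (log2 difference -1.67, SE 0.97, not past the threshold). As deposited, fear conditioned dendrite 1 exceeded both coding supernatant values (4.46 and 4.02). Kcnj6 and Scn2b were the 2 members lower in every dendrite library after scaling (background 2.24%), and Kcnj6 was the 1 such member as deposited (background 0.761%).

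**Figure D3:**
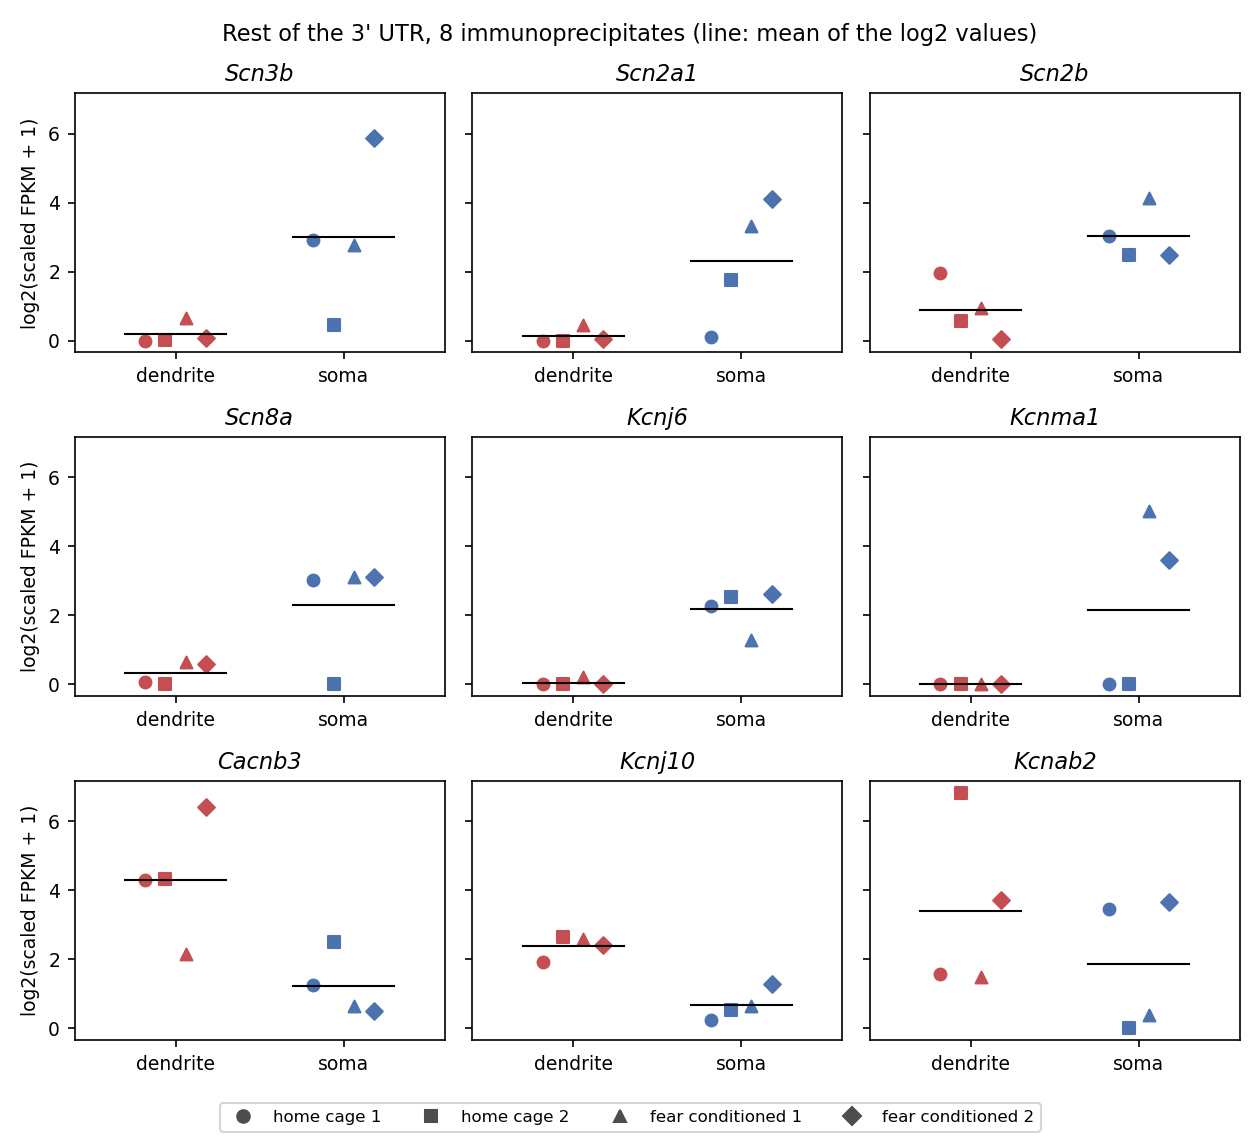
Rest of the 3′ UTR of 9 members, as log2(scaled FPKM + 1), in each dendrite and soma immunoprecipitate; symbols mark the library and lines the mean of the log2 values. After scaling, Kcnj6 and Scn2b were lower and Kcnj10 higher in all 4 dendrite libraries, and Cacnb3 overlapped only through fear conditioned dendrite 1 and home cage soma 2.

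**Figure D4:**
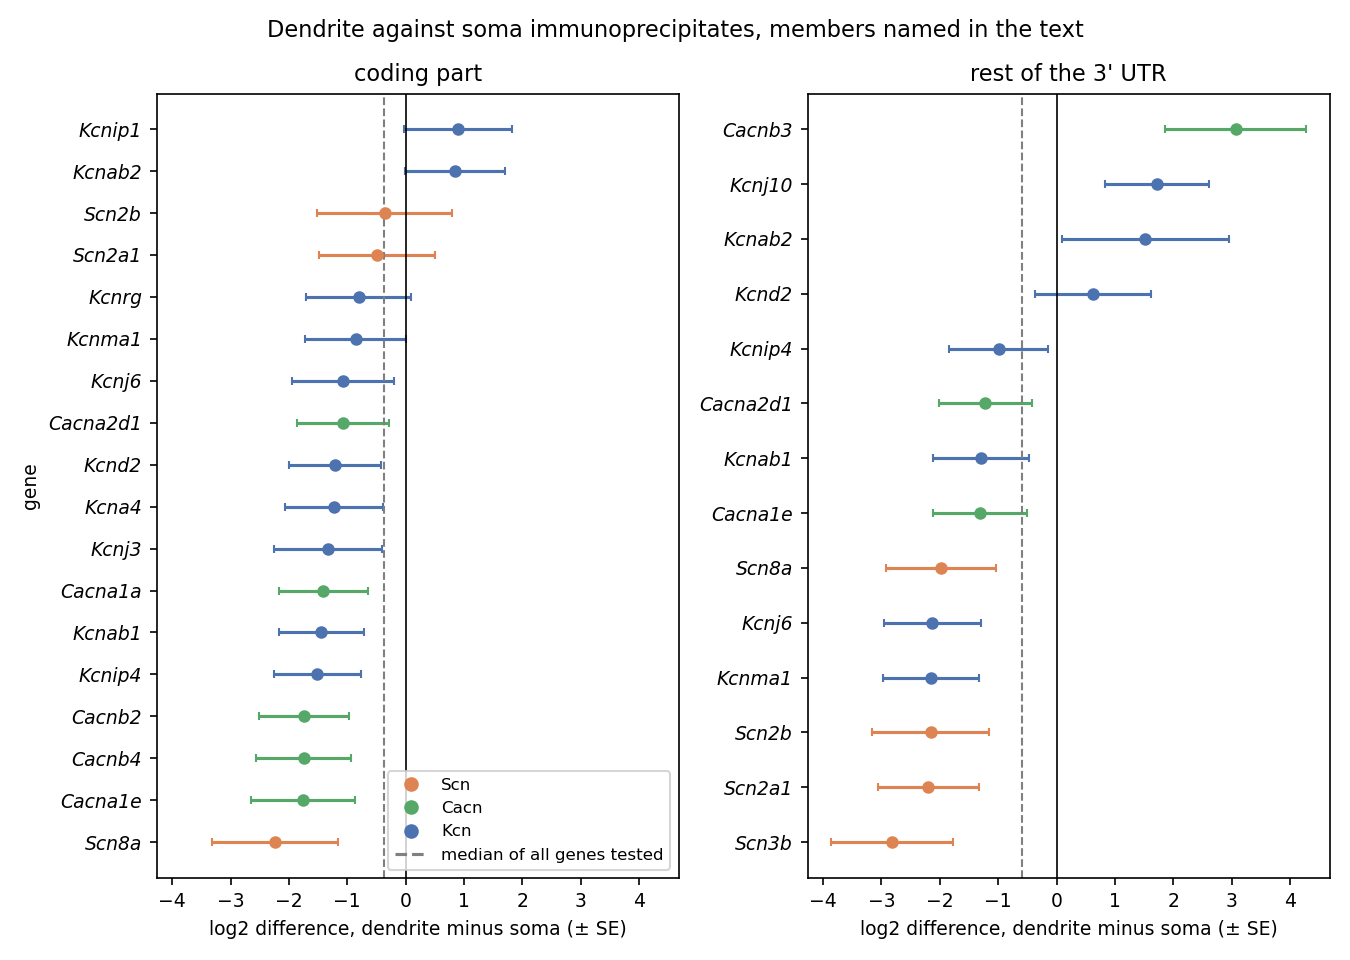
Log2 differences between dendrite and soma immunoprecipitates (points, with SE) for 18 members tested in the coding part (left) and 14 tested in the rest of the 3′ UTR (right), coloured by family. Most points lie left of the median of all genes tested (dashed, -0.37 and -0.59), and Cacnb3 at 3.07 lies farthest to the right.

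Genes that bind or anchor these channels were read from a list of 33, of which 32 were in the tables. None of the 19 tested in the coding part passed, 15 had differences below 0, and the median was -0.88 beside -0.37 over all genes. Ank2 and Ank3, the ankyrins that hold sodium channels in place, had log2 differences of -2.14 (SE 0.90) and -1.84 (SE 1.12). Both had limma adjusted p = 0.654.

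The second question was whether fear conditioning went with a change. No member passed in dendrite or soma immunoprecipitates, and no gene of 3076 did (0.0% in each). In the dendrite immunoprecipitates 15 members were above 0 and 6 below (58.2% and 38.9% of genes), the member median was 0.13 beside 0.10 over all genes, and no member had an unadjusted p under 0.05 (backgrounds of 2.02% higher and 1.27% lower). In the soma immunoprecipitates 17 members were above 0 and 5 below (63.3% and 34.8% of genes), and the medians were 1.13 and 0.52. There 2 of 22 members were higher and 0 lower at an unadjusted p under 0.05 (backgrounds of 6.83% and 1.5%).

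Cacnb4, listed at 0 in both home cage soma libraries, was at 3.81 and 30.6 in the fear conditioned ones (log2 difference 3.63, SE 1.15; limma adjusted p = 0.549). Leaving out fear conditioned soma 1 gave a log2 difference of 5.02, with the remaining library carrying the group, so no p-value is given. Single-end FPKM of Cacnb4 were 0.252 and 0.953 in home cage soma, while fear conditioned soma 1 was near 0 and fear conditioned soma 2 at 48.7, so the groups overlapped there. Kcnab1 was at 0.614 and 0 in home cage and 5.75 and 4.33 in fear conditioned soma (log2 difference 2.24, SE 1.03; limma adjusted p = 0.549). The interaction of behaviour and location had no member past the threshold (0.0% of genes) and none at an unadjusted p under 0.05 (backgrounds of 0.943% higher and 2.7% lower). Its value for Cacnb4 was -3.49 (SE 1.63; limma adjusted p = 0.726). Of the interaction values 18 of 22 were below 0 (58.1% of genes, with 41.9% above). Home cage soma 2 was 1 of the 2 libraries behind every soma contrast.

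Bound and unbound RNA were compared over all 11 libraries. No member passed in dendrite (0.0656% of 3049 genes did) or in soma (0.0% did), where the only supernatant was taken to vary like the other groups. In dendrite 19 of 22 members were lower in the immunoprecipitate than in the supernatant (58.3% of genes, with 41.6% higher), with a median of -0.37 beside -0.14. At an unadjusted p under 0.05, 1 member was lower and 0 higher (backgrounds of 4.07% and 0.951%). Kcnip3, a calcium sensor of the KChIP family, was at 0, 0, 0.972 and 0 in dendrite immunoprecipitates and at 5.20 and 2.21 in dendrite supernatants (log2 difference -1.91, SE 0.86; limma adjusted p = 0.990). In soma 13 of 22 members were lower (42.7% of genes, with 57.3% higher), and none had an unadjusted p under 0.05 (backgrounds of 0.82% lower and 0.164% higher). The soma medians were -0.09 for members and 0.19 for all genes, and 0.21 and 0.43 as deposited, so the direction for members depended on the scaling.

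The supernatants themselves, as deposited and with no test because there was 1 soma library, held some of the same differences. In the rest of the 3′ UTR Kcnj10 was at 25.2 and 21.2 in the dendrite supernatants and 1.86 in the soma supernatant. Hcn2 was at 10.5 and 15.5 against 0 there. It was too low to test in the immunoprecipitates, where only fear conditioned dendrite 1 was above 0 (6.04 FPKM). The coding part of Hcn2 went both ways in the supernatants, at 0.816 and 0.319 against 0.475. In the rest of the 3′ UTR Scn3b was at 0.863 and 0.421 against 17.1, and Kcnma1 at 0.286 and 0.107 against 3.57. Cacna2d1, an alpha2delta subunit, was at 1.83 and 0.377 against 14.8. Cacnb3 was at 15.4 and 2.89 against 1.11. Scn2b was at 3.08 and 1.62 against 7.62 and Kcnj6 at 0.656 and 2.23 against 2.42, while Scn2a1 went both ways at 1.32 and 9.96 against 3.15. In the single-end run Kcnj10, Scn3b and Cacnb3 kept their direction in both dendrite supernatants. Single-end Kcnma1 (1.63 and 0.172 against 1.62), Kcnj6 (0.468 and 11.1 against 3.61) and Scn2b (5.81 and 13.4 against 8.75) went both ways. Among members with a mean of at least 1, both dendrite supernatants were below the soma one for 11 of 20 in the coding part (background 23.8%) and for 15 of 25 in the rest of the 3′ UTR (background 34.5%). Both were above it for 7 (background 52.0%) and 8 (background 39.5%). In the single-end run both were below for 15 of 44 coding parts and 12 of 34 3′ UTRs (backgrounds of 20.2% and 28.5%). Both were above for 23 and 13 (backgrounds of 52.7% and 37.7%).

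Agreement between the 2 parts of a transcript differed by library. In home cage dendrite 1, 4 members were above 0 in both parts, 10 in the coding part alone and 7 in the 3′ UTR alone. In fear conditioned soma 2 the counts were 40, 19 and 7, and in the home cage dendrite supernatant 58, 28 and 9. Across the 123 members with both parts, which share library and depth, Pearson's r of log2(FPKM + 1) ran from -0.021 in home cage soma 2 to 0.73 in the home cage dendrite supernatant. Between the paired-end and single-end runs of a library, over all 141 members, r was lowest at 0.152 (home cage dendrite 1) and highest at 0.852 (fear conditioned dendrite 2). The library shallowest in the paired-end run and the one with the fewest genes there had the weakest agreement. The shallowest single-end run, home cage dendrite 2 at 524000 fragments, had an r of 0.668 with its paired-end run.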

How the data were processed

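RNA was amplified with the Nugen Ovation kit and sequenced, per the labels' protocols. Per the submitters' processing notes the tools were Cufflinks 2.0.2, STAR 2.1.1d and CASAVA 1.9, on mm9; their settings and any use of strand are not stated. The deposited values are FPKM, in a paired-end and a single-end table, and their annotation gave the mm9 positions. Amplified RNA without molecular identifiers does not count molecules, and the tables hold no counts. Depth came from the value of 1 fragment in low genes, by a rule set after the values were seen.

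Size factors were median ratios over 763 genes (coding part) or 423 (rest of the 3′ UTR) at 0.01 FPKM or more in all 8 immunoprecipitates, and over 675 in all 11 libraries. The floor of 0.01, below which values are fractions of 1 fragment, was added after seeing the size factors; without it 870 genes serve. Genes with a mean of at least 1 were tested, two-sided, on log2(scaled FPKM + 1) in limma 3.58.1 (R 4.3.3) with a variance trend, and p-values were adjusted by Benjamini-Hochberg across every gene tested. Immunoprecipitates were fitted in 4 groups, and the 11-library fit used location-by-fraction groups plus behaviour. The script was tested on simulated data.

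The members, lists and tests were chosen with earlier results of these data known. Named members were a preset list of well-known channels, those with the highest mean in each family, those with an unadjusted p under 0.05 where none passed, and those without overlap in the coding part; others, and which differences are printed, were chosen after their values were seen. Alternatives were pseudocounts of 0.1 and 5, no minimum and one of 5, no scaling, the single-end table, robust moderation, a replicate block, and leaving out each library. Leaving out both libraries that stood apart, and scaling on every gene above 0, were added after seeing the data. Of the members, 18 overlap another symbol on the same strand and 14 on the opposite one, and overlapping transcripts cannot be separated. Sequences were not used here, and some members and partner genes, although counted and tested, are not reported here by name.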

Additional observations from a re-analysis of the deposited data

Results flagged for a closer look

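Each group of 4 libraries behind a printed dendrite and soma difference was checked for a library far from the other 3 on the log2 scale. Of 34 such groups 9 were flagged, all in dendrite immunoprecipitates; chance flags about 1 in 20 groups, and most flags share a library. In 8 of the 9 the library was fear conditioned dendrite 1, which lists the most genes of the immunoprecipitates, and it was the highest of the group. In the coding part its scaled FPKM was 0.898 for Scn8a, 0.182 for Cacnb4, 0.0597 for Kcnip4 and 0.0606 for Kcnab1. In the rest of the 3′ UTR it was 0.591 for Scn3b, 0.365 for Scn2a1, 0.0197 for Kcnma1 and 0.166 for Kcnj6. In the remaining group the library was home cage dendrite 2, at 0.900 for Cacna1e in the coding part. The other libraries of these groups were at or near 0, so that a small value can stand apart.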

How the results depend on the processing

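No member passed in any of the 7 comparisons under either pseudocount, a minimum of 5, no scaling, the single-end table, robust moderation, the scaling on every gene above 0 (chosen after seeing the data) or the replicate block (0 members in each). Same-numbered dendrite and soma libraries deviated with correlations of -0.012 to 0.048, too weak to treat the numbers as pairs, although 3 of 4 dendrite libraries correlated best with their own number; a shared animal or pool was not tested. With no minimum, 6 of 115 members (5.22%) passed in each bound against unbound comparison, beside 2.4% of all genes in dendrite and 5.49% in soma. In the rest of the 3′ UTR 0 to 5 members passed when 1 library was left out (5 without fear conditioned soma 1, 2 without fear conditioned soma 2, 2 without home cage soma 2, beside 7.65%, 6.68% and 5.69% of all genes) and 4 when both libraries that stood apart were (10.6% of all genes); for fear conditioning in soma 0 to 2 did (2 without fear conditioned soma 1, 1 without fear conditioned soma 2, beside 6.29% and 5.68%). In those fits Kcnma1 was at -1.76 and -2.47, Kcnj6 at -2.38, Cacnb4 in soma at 5.02 and Cacnb3 at 4.57. They have fewer samples and take a lone library to vary like the other groups. Passing in them therefore does not measure the spread of that group. Leaving out 1 library, Scn2a1 ranged from -1.36 to 0.38 (0.16 without home cage dendrite 1).

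Medians of tested members moved with the settings; the cause was not tested beyond the change in members tested. With pseudocounts of 0.1 and 5 the coding dendrite and soma median was -2.41 and -0.45, with no minimum -0.066 and with a minimum of 5 -0.35. In the rest of the 3′ UTR these were -2.52, -0.48, -0.086 and 0.037. Fear conditioning gave 0.89 (pseudocount 0.1) and 1.80 (minimum 5) in dendrite; in soma 2.18, 0.53, 0.036 and 2.58 in the same order of 4, 1.64 unscaled, 0.55 single-end and 0.30 to 1.64 leaving out 1 library. The interaction gave -2.54, -0.55, -0.026 and -0.15, -0.55 single-end and -1.56 to -0.42 leaving out 1. Bound against unbound gave -1.43 (pseudocount 0.1) and -1.05 (single-end) in dendrite, and -0.61 (pseudocount 0.1) and -1.28 (minimum 5) in soma. Leaving out 1 library kept the coding median between -1.38 and -0.85 and that of the rest of the 3′ UTR between -1.57 and -1.04. A median of 18 members was above 0 in both parts in the single-end libraries. FPKM without counts allow no counting intervals, and low members rest on few fragments.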
